A study of Dichomitus squalens with 6 samples.

Results

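In mycelium of the white-rot fungus Dichomitus squalens, 41 gene models followed one graded order of expression across 3 carbon sources, with the highest level on xylose, a middle level on cellobiose and the lowest level on L-rhamnose. They were drawn from 15295 deposited gene models, of which 9894 met the conditions set on the model itself: at least 2 exons, a coding length above 400 bases, a whole expected count in all 6 libraries (within 1e-06), and a place outside scaffolds 52, 68 and 77. An expected count is the number of reads assigned to a gene, and FPKM, taken as deposited, scales that number for length and library size. A model became a member when the mean of FPKM + 1 over the xylose libraries was at least 10, was more than 2 times the cellobiose mean, and the cellobiose mean was more than 2 times the L-rhamnose mean. Both xylose libraries also had to lie above both cellobiose libraries, and both cellobiose libraries above both L-rhamnose libraries. The members were thus chosen by their levels in all 6 libraries, and every level, ratio and fold change of a member below is a description and carries no test.

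Wild-type strain CBS 464.89 grew as mycelium for 5 days at 28 °C on agar plates (1.5%), and total RNA was sequenced from 2 libraries per carbon source. All groups shared a medium low in nitrogen that also contained asparagine and succinate, and each received 25 mM of cellobiose, L-rhamnose or D-xylose. Plates with none of the 3 sugars were not analysed here, so a level on one sugar is known only relative to the other two. The labels do not say whether replicates came from separate plates, and the p-values given for other models measure only the spread between these libraries, which may be technical.

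White-rot fungi break down cellulose, hemicellulose, pectin and lignin with secreted enzymes and take up the small sugars that are set free. Cellobiose is the disaccharide released from cellulose, xylose is the backbone sugar of xylan, and L-rhamnose comes largely from pectin. In fungi, small sugars of this kind serve both as food and as signals that raise or lower the transcription of genes for enzymes, transporters and sugar metabolism. The deposited models carry numbers and positions without product names, and a gene table of another strain, LYAD-421 SS1, matched 0 identifiers. No function is therefore given to any member. The members are described by level, gene structure and place on the scaffolds of the deposited assembly, whose build name is not given in the sources used here.

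The same thresholds were applied to the other orders of the sugars. The exact opposite order, L-rhamnose over cellobiose over xylose, held 34 models. Cellobiose over L-rhamnose over xylose held 26, L-rhamnose over xylose over cellobiose held 8, cellobiose over xylose over L-rhamnose held 4, and xylose over L-rhamnose over cellobiose held 0. The expression conditions alone were met by 54 models, and 13 of these were left out by the conditions on the gene model. All 41 members passed the filter on low counts. Their lowest expected count in any library was 5, and 3 members had a library with fewer than 10 counts.

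Summed FPKM of the members was 1814 and 1561 in L-rhamnose replicates 1 and 2, 4844 and 6998 in cellobiose replicates 1 and 2, and 19988 and 19684 in xylose replicates 1 and 2. The xylose libraries were close to each other in this sum, whereas cellobiose replicate 2 stood well above replicate 1. Members took 0.179% and 0.158% of all counts in the L-rhamnose libraries, 0.474% and 0.655% in those from cellobiose, and 1.73% and 1.90% in those from xylose. The median member had 12.1 and 11.8 FPKM on L-rhamnose, 29.0 and 54.7 on cellobiose, and 193 and 178 on xylose. Across the 8131 models that met the gene-model conditions and reached a mean FPKM + 1 of 10 on some sugar, the median per library lay between 32.1 and 34.7 FPKM. A typical member was thus below the median model on L-rhamnose and well above it on xylose. Total counts ranged from 7306517 to 8126006 per library. Replicates were not copies of one library: chi-square between the pair, divided by its degrees of freedom, came to 14.8 for L-rhamnose, 24.3 for cellobiose and 53.8 for xylose, where counting noise alone gives about 1.

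**Figure D1:**
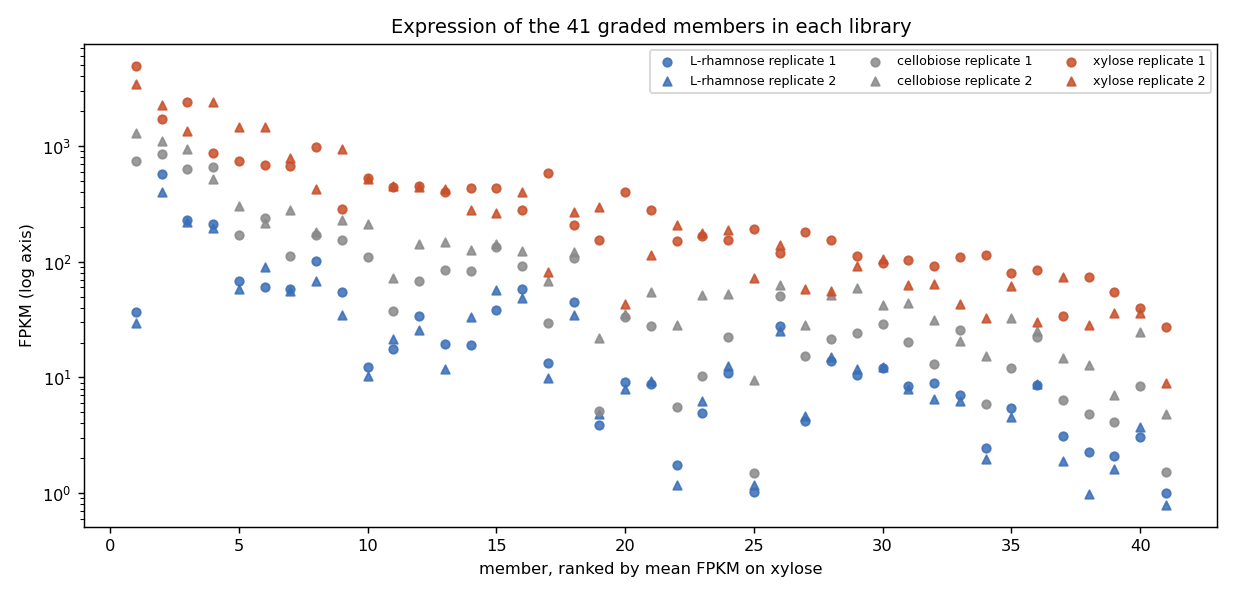
FPKM of each of the 41 members (log axis) in each of the 6 libraries, with members ranked by mean FPKM on xylose; colours mark the sugar, circles replicate 1 and triangles replicate 2. Levels on xylose run from means of 4181 to 18.1 FPKM, and cellobiose replicate 2 lies above cellobiose replicate 1 in 38 members.

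The most abundant member on xylose was gene_11302, a model of 3 exons and 528 coding bases on the minus strand of scaffold 44, bases 99782 to 100600. It had 36.9 and 29.5 FPKM on L-rhamnose, 737 and 1306 on cellobiose, and 4930.3 and 3431 on xylose. Its L-rhamnose libraries were near the median expressed model, and each sugar occupied a range of its own. The mean was 33.2 ± 5.18 FPKM on L-rhamnose (SD, n = 2) and 1021 ± 403 on cellobiose (SD, n = 2). The ratio of means of FPKM + 1 was 29.9 between cellobiose and L-rhamnose, the greatest of all members, and 4.09 between xylose and cellobiose. For xylose over L-rhamnose it was 122. This one model supplied 24.7% and 17.4% of the members' summed FPKM on xylose.

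The second most abundant member, gene_7090, was of another kind. This model of 3 exons and 768 coding bases, on the minus strand of scaffold 22 (bases 325276 to 326187), had 577 and 399 FPKM on L-rhamnose, 852 and 1115 on cellobiose, and 1700 and 2269 on xylose. It was already the most abundant member on L-rhamnose, and it lay just inside both fold thresholds, at 2.016 for xylose over cellobiose and 2.014 for cellobiose over L-rhamnose.

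Another 4 members reached a mean of at least 1000 FPKM on xylose. A model of 5 exons on scaffold 1 (bases 1912027 to 1912993) had 228 and 220 FPKM on L-rhamnose, 638 and 948 on cellobiose, and 2382 and 1357 on xylose. An 8-exon model on scaffold 3 (bases 228241 to 230372) had 211 and 197 FPKM on L-rhamnose, 659 and 521 on cellobiose, and 878 and 2383 on xylose. Its first xylose library was little above its cellobiose libraries, so most of its upper step came from xylose replicate 2. The 6-exon model on scaffold 21 (bases 54688 to 56240) had 68.3 and 57.5 FPKM on L-rhamnose, 169 and 306 on cellobiose, and 748 and 1451 on xylose. On scaffold 40, a 4-exon model at bases 31189 to 32195 had 61.0 and 90.5 FPKM on L-rhamnose, 238 and 216 on cellobiose, and 685 and 1472 on xylose. In both of these models the lowest xylose library was more than 2 times the highest cellobiose library, and the lowest cellobiose library more than 2 times the highest L-rhamnose library.

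Among the other members, 24 had a mean between 100 and 1000 FPKM on xylose and 11 had less than 100. On L-rhamnose the mean was under 10 FPKM in 18 members, under 2 in 5, and at least 100 in 3. The members thus ranged from models that were barely detected on L-rhamnose to models that were well expressed on every sugar. A wide margin at both steps was found in 9 members, in which the lowest library of the higher sugar exceeded 2 times the highest library of the lower sugar at each step. For the upper step alone, from cellobiose to xylose, this held in 23 members, and for the lower step alone, from L-rhamnose to cellobiose, in 21.

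**Figure D2:**
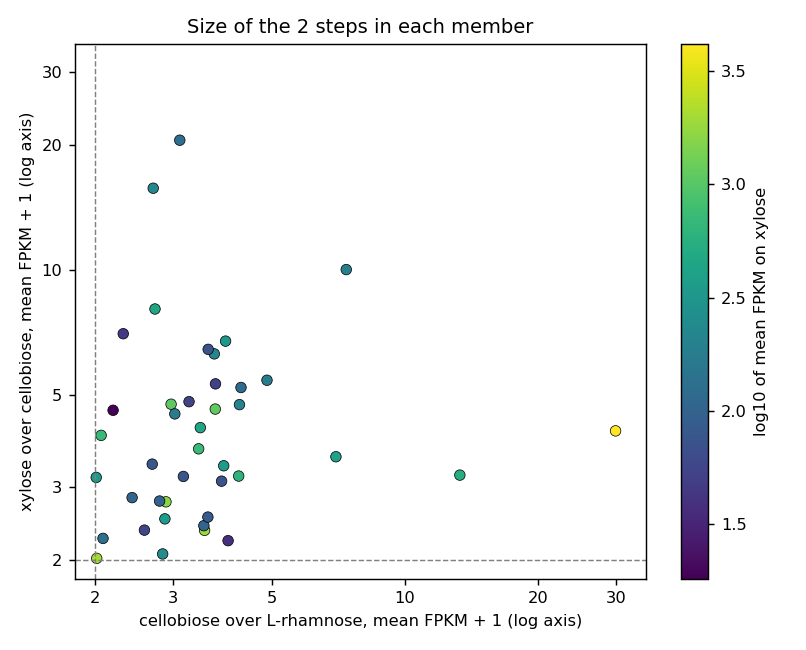
Ratio of xylose to cellobiose against the ratio of cellobiose to L-rhamnose for each member, both from means of FPKM + 1 on log axes; dashed lines mark the threshold of 2 and colour gives the mean FPKM on xylose. Most members lie below 10 on both axes, 1 member stands apart at 29.9 on the horizontal axis and 2 stand above 15 on the vertical axis.

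The ratio of xylose to cellobiose had a median of 3.70 and ran from 2.016 to 20.5. The ratio of cellobiose to L-rhamnose had a median of 3.42 and ran from 2.009 to 29.9. For xylose over L-rhamnose the median was 13.4, with a range from 4.06 to 122. The upper step was the larger in 26 members and the lower step in 15, and the steps differed by more than 2 times in 7 members, 5 with the larger upper step and 2 with the larger lower one.

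The widest upper step belonged to a 2-exon model on scaffold 39 (bases 111272 to 112346). It had 1.03 and 1.17 FPKM on L-rhamnose, 1.50 and 9.53 on cellobiose, and 193 and 72.3 on xylose. Cellobiose replicate 1 was thus close to the L-rhamnose level, whereas cellobiose replicate 2 was well above it. The xylose over cellobiose ratio was 20.5, and that of cellobiose over L-rhamnose was 3.10. These low levels rest on few reads, with expected counts of 5 and 6 on L-rhamnose and 8 in cellobiose replicate 1. The next widest, 15.7, was seen in a 6-exon model on scaffold 232 (bases 7936 to 9443), with 3.85 and 4.85 FPKM on L-rhamnose, 5.09 and 21.8 on cellobiose, and 153 and 300 on xylose. An 8-exon model on scaffold 102 (bases 58894 to 60519) was wide at both steps, with 1.74 and 1.17 FPKM on L-rhamnose, 5.56 and 28.6 on cellobiose, and 152 and 209 on xylose. Its ratios were 10.01 for the upper and 7.37 for the lower step. The lower step was the wide one in a 12-exon model on scaffold 86 (bases 87840 to 89806), at 13.3 against an upper step of 3.20. That model had 12.3 and 10.3 FPKM on L-rhamnose, 111 and 214 on cellobiose, and 525 and 518 on xylose.

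At the edge of the rule, the members just inside the upper threshold were gene_7090 and an 11-exon model on scaffold 8 (bases 349762 to 352582), the latter at 2.066. Just outside it lay a model on scaffold 95 at 1.998 and one on scaffold 3 (bases 392628 to 395427) at 1.986. Just inside the lower threshold were gene_7090 and a 2-exon model on scaffold 4 (bases 315775 to 317269) at 2.009. Models on scaffolds 16 and 39 (bases 187617 to 189049 and 223521 to 225866) stayed outside at 1.997 and 1.982. These near misses met every other condition. The border of the set is accordingly a matter of small differences in FPKM.

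In a fit of edgeR's quasi-likelihood test across all 12667 genes that passed the filter, 210 genes (1.66%) were called higher on xylose than on cellobiose and 323 (2.55%) lower. For cellobiose against L-rhamnose the calls were 1395 higher (11%) and 1397 lower (11%). For xylose against L-rhamnose they were 1974 higher (15.6%) and 2014 lower (15.9%). Because the rule used the same libraries, the members' own calls are given only as a description. All 41 members were called higher in xylose against L-rhamnose, 31 in cellobiose against L-rhamnose and 22 in xylose against cellobiose. Both steps were called in 19 members, where 30 genes (0.237%) were called in both steps among all those tested. A further 12 members were called only at the lower step, 3 only at the upper step and 7 at neither. The median fitted log2 difference of the members was 2.01 for xylose minus cellobiose, 1.85 for cellobiose minus L-rhamnose and 3.96 for xylose minus L-rhamnose, against medians of 0.01, 0.00 and -0.01 over all tested genes. The 3 comparisons share libraries and do not stand as separate results. Shares over all tested genes are given for the fit of all 6 libraries only. The counts from fewer libraries that follow have no such share beside them. They do not set the members against other genes. Members called at the upper step numbered 2 when either L-rhamnose library was left out, 6 without cellobiose replicate 1 and 36 without xylose replicate 2. At the lower step they numbered 3 or 2 without L-rhamnose replicate 1 or 2, and 4 without cellobiose replicate 2.

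A feature that the rule did not fix is the order of the 2 libraries within a sugar. It was looked at after the values had been seen, and it is given without a test. Cellobiose replicate 2 was above cellobiose replicate 1 in 38 of the 41 members (92.7%). Among the 8090 other expressed models that met the gene-model conditions the share was 48.7%. Those models were not picked for a difference between sugars, and all 41 members rest on the same 2 cellobiose libraries. The share among non-members that rise from L-rhamnose to xylose is not given here. The median fold between the cellobiose libraries was 1.91 in members and 1.16 in the others. In 18 members (43.9%) the cellobiose libraries were more than 2-fold apart, always with replicate 2 the higher, against 2.45% of the other models. The members thus sat at clearly different levels in the 2 cellobiose libraries. The rule used the levels in these libraries, so it also bears on how far apart they can lie. The folds and shares of this spread are a description only.

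The cellobiose libraries were furthest apart, 4.70-fold, in a 4-exon model on scaffold 119 (bases 21686 to 23399). It had 10.2 FPKM in cellobiose replicate 1 and 51.7 in replicate 2, while L-rhamnose gave 4.91 and 6.19 and xylose 167 and 178. Next came the models on scaffolds 102, 39 and 232 described above, at 4.52-fold, 4.21-fold and 3.75-fold; the xylose libraries of the scaffold 39 model were also 2.65-fold apart. A 9-exon model on scaffold 189, at 2.74-fold (bases 42726 to 44784) had 8.39 and 24.7 FPKM on cellobiose, while L-rhamnose gave 3.06 and 3.75 and xylose 39.9 and 36.2. In the scaffold 119 and scaffold 189 models, xylose and L-rhamnose replicates lay near each other and the cellobiose pair was spread. Cellobiose replicate 1 was under 2 times the higher L-rhamnose library in 20 members, and cellobiose replicate 2 in 2 members. Which cellobiose library is taken therefore sets how large the lower step appears. The median ratio of cellobiose to L-rhamnose over the members was 4.42 without cellobiose replicate 1 and 2.24 without replicate 2.

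**Figure D3:**
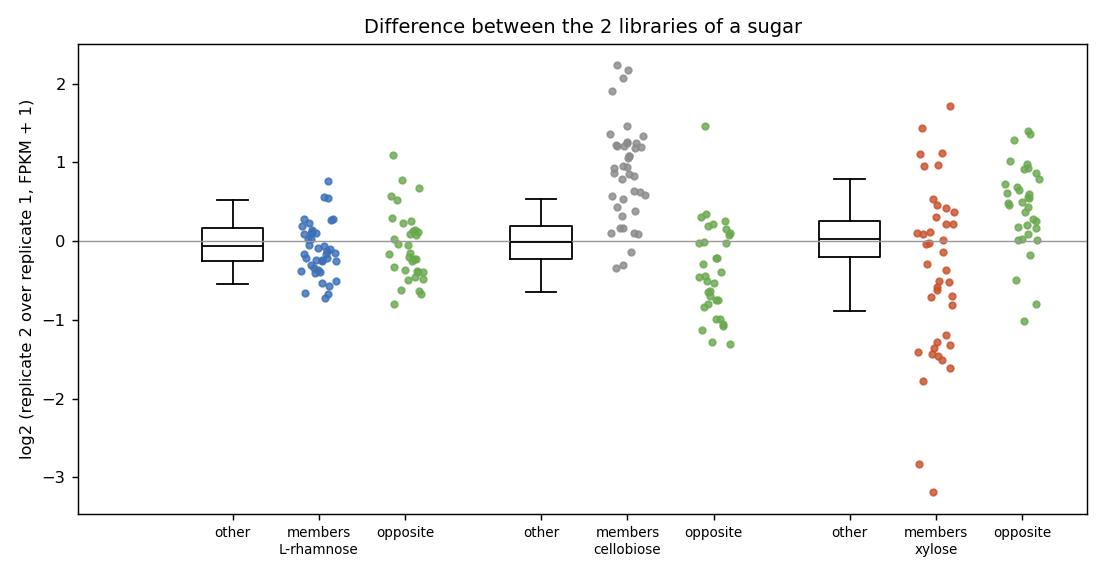
Log2 ratio of replicate 2 to replicate 1 (FPKM + 1) within each sugar; boxes show the 8090 other expressed models (quartiles, with whiskers at the 5th and 95th percentiles), coloured points the 41 members and green points the 34 models graded in the opposite order. Members lie above 0 on cellobiose, mostly at or below 0 and widely spread on xylose, and near 0 on L-rhamnose, while models of the opposite order lie mostly below 0 on cellobiose and above it on xylose.

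Xylose libraries differed as well, in both directions. Replicate 1 was the higher in 24 members and replicate 2 in 17, and the median fold between them was 1.63, against 1.18 in the other models. They were more than 2-fold apart in 16 members (39.0%, against 6.96%), with replicate 1 the higher in 12 of these and replicate 2 in 4. The rule used the mean of the 2 xylose libraries, so a high value in either can carry a model into the set. The spread of the members is therefore partly set by the rule, and these shares are a description only. L-rhamnose libraries were close, with a median fold of 1.18 in members and 1.16 in the others, and none of the 41 members was more than 2-fold apart. In the 34 models of the opposite order, cellobiose replicate 2 was the higher in 9 (26.5%) and xylose replicate 2 in 30 (88.2%). Cellobiose replicate 2 was thus the library nearer to xylose in most models of both sets, and xylose replicate 2 was nearer to L-rhamnose in most models of the opposite set. The labels record no batch for these libraries, and what sets the replicates apart was not tested.

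In 4 members the xylose libraries lay further apart than the xylose mean lay from the cellobiose mean. A 6-exon model on scaffold 14 (bases 187165 to 188194) had 584 FPKM in xylose replicate 1 and 81.4 in replicate 2, above cellobiose values of 29.3 and 67.8 and L-rhamnose values of 13.4 and 9.84. A 4-exon model on scaffold 40 (bases 38002 to 39269) had 399 and 42.7 FPKM on xylose, above 33.2 and 35.6 on cellobiose and 9.06 and 7.99 on L-rhamnose. Here xylose replicate 2 was barely above the cellobiose libraries, so the upper step rested on xylose replicate 1. The other cases were a model on scaffold 13, with 286 and 942 FPKM on xylose, and one on scaffold 153, with 85.2 and 30.4. When xylose replicate 2 was left out and the rule applied to the remaining libraries, 85 models met it, including 37 of the members.

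Some members had close xylose libraries. A 10-exon model on scaffold 55 (bases 19699 to 21394) had 450 and 439 FPKM on xylose, 68.5 and 143 on cellobiose, a 2.08-fold spread, and 34.1 and 25.9 on L-rhamnose. An 11-exon model on scaffold 183 (bases 26550 to 28644) had 97.2 and 105 FPKM on xylose, 29.0 and 42.5 on cellobiose and 12.1 and 12.3 on L-rhamnose, a step of 2.77 and one of 2.79. The latter climbed in nearly equal steps and left a clear gap between the sugars.

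As gene models the members resembled the other 8090 expressed models in most respects. They had a median of 5 exons, against 6, and a median intron of 62.5 bases, against 59. An annotated untranslated region was present in 68.3% of members and 70.5% of the others, and 10 or more exons in 17.1% and 20.5%. Coding lengths were shorter, with a median of 1041 bases against 1245, and 2 members (4.88%) had more than 2000 coding bases against 20.01% of the others. The longest member, with 22 exons and 7164 coding bases, lay on scaffold 86. Spans of 8 members overlapped another model, on opposite strands in 4 of these. Whether the authors' counting used strand is not given in the sources used here, so reads of such pairs may not be fully separated.

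Members were spread over 36 of 406 scaffolds, and 32 scaffolds held 1 member each. The scaffolds that carried them had a median length of 192998 bases, weighted by member, against 284897 for the other expressed models, and 9 members (21.95%) lay on scaffolds under 100000 bases, against 12.2% of the others. The length bound was set after the positions had been seen. Members stood directly next to each other in 1 case, on scaffold 86. Another 2 neighbours of members met the expression conditions but not those on the gene model. On scaffold 181 a neighbour had 64.8 and 65.6 FPKM on L-rhamnose, 280 and 531 on cellobiose, and 961 and 788 on xylose. On the same sugars a 1-exon neighbour on scaffold 55, overlapping the member there, had 5.11 and 3.1, 9.01 and 13.5, and 29.01 and 26.15. The closer look at 3 regions that follows was also chosen after the values were seen.

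**Figure D4:**
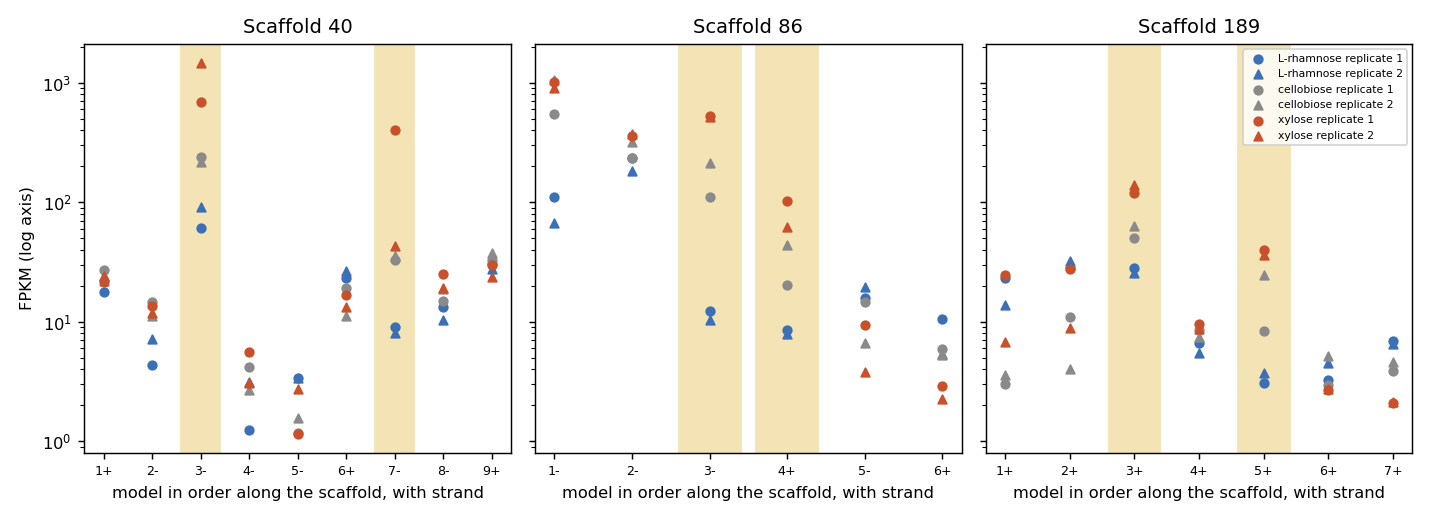
FPKM (log axis) of consecutive gene models around members that lay within 10000 bases of each other on scaffolds 40, 86 and 189, in order along the scaffold with the strand given; shaded models are members, colours mark the sugar and symbols the replicate. Members are wider apart between sugars than most models beside them; on scaffold 86 the first model shown, no member, is also far higher on cellobiose and xylose than on L-rhamnose.

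On scaffold 86 the 12-exon member described above and the 22-exon member (bases 91208 to 99535) pointed away from each other with 1401 bases between them. The second had 8.48 and 7.95 FPKM on L-rhamnose, 20.3 and 43.9 on cellobiose, and 103 and 62.6 on xylose. Both had cellobiose replicate 2 about as far above replicate 1, but the first was several times more abundant. The model before the first member (bases 86079 to 87596) had 235 and 182 FPKM on L-rhamnose, 235 and 319 on cellobiose and 359 and 370 on xylose. It was called higher on xylose than on L-rhamnose (log2 difference 0.95 ± 0.22 SE, edgeR adjusted p = 0.0179). One place further out, an 18-exon model that shares reads with another gene (bases 82807 to 85598) had 111 and 67.3 FPKM on L-rhamnose, 542 and 1044 on cellobiose and 1008 and 903 on xylose. Its lower step was large (log2 difference 3.18 ± 0.40 SE, edgeR adjusted p = 0.00517) and its upper step was 0.39 ± 0.37 (SE, adjusted p = 0.608). Of the models in this stretch outside the pair, this one alone was called higher on cellobiose than on L-rhamnose; the model between it and the pair was not (log2 difference 0.43 ± 0.22 SE, edgeR adjusted p = 0.181). On the far side of the pair, the next model had 15.8 and 19.6 FPKM on L-rhamnose, 14.7 and 6.69 on cellobiose and 9.33 and 3.83 on xylose.

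On scaffold 40 the members at bases 31189 to 32195 and 38002 to 39269 lay 5806 bases apart with 3 models between them, both on the minus strand. Each had 4 coding parts and 471 coding bases. Read from the start of the coding sequence, the parts of the first were 70, 127, 177 and 97 bases, and those of the second 73, 124, 177 and 97. Another model of this make, on the plus strand between them (bases 36172 to 37297), had parts of 70, 127, 177 and 97 bases. Among the 1766 deposited models with 4 coding parts, these 3 alone ended in parts of 177 and 97 bases. That model was no member. It had 23.3 and 26.6 FPKM on L-rhamnose, 19.1 and 11.2 on cellobiose and 16.6 and 13.3 on xylose, with a log2 difference for xylose minus cellobiose of 0.11 ± 0.32 (SE, edgeR adjusted p = 0.886). The non-member thus had the same part lengths as the first member and a level that did not follow the members' order. The span of the second member overlaps that of the next model only within the untranslated region at the start of the member. Untranslated regions did not enter the counts used here.

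Scaffold 189 carried 3 members among its 20 models. A 2-exon member at bases 3861 to 4871 had 19.6 and 11.9 FPKM on L-rhamnose, 84.7 and 147 on cellobiose and 397 and 429 on xylose. A 4-exon member at bases 37495 to 38410 had 27.9 and 25.4, 50.1 and 63.0, and 119 and 138 FPKM on the same sugars. The 9-exon member described above lay 4315 bases further on, with 1 model between them. That model had between 5.50 and 9.61 FPKM in every library. It had 6.71 and 5.50 FPKM on L-rhamnose, 8.57 and 7.51 on cellobiose, and 9.61 and 8.72 on xylose. The model between the close members was thus low, but it kept their order in all libraries with small steps. Its log2 difference for xylose minus L-rhamnose was 0.73 ± 0.24 (SE, edgeR adjusted p = 0.0571).

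The models directly before and after each member were also looked at, where they were not members themselves. A neighbour that met the whole rule was a member and is left out here, so the rule bears on this set too. There were 78 neighbours left, of which 71 were tested. For xylose minus cellobiose 3 of them were called higher (4.23%, against 1.66% of all tested genes). None was called lower by edgeR, whereas DESeq2 called 10 higher and 2 lower. At an unadjusted edgeR p under 0.05, 17 were higher and 7 lower. Shares over all tested genes are not given here for these last counts. For cellobiose minus L-rhamnose 12 were called higher (16.9%) and 6 lower (8.45%), against 11% and 11% of all tested genes. For xylose minus L-rhamnose 20 were called higher (28.2%) and 5 lower (7.04%), against 15.6% and 15.9%. Their median log2 differences were 0.27, 0.06 and 0.32 in these 3 comparisons. These counts moved with every library, and the members' own calls at both steps moved too. The counts from fewer libraries that follow have no share over all tested genes beside them. They do not set the neighbours against other genes. For cellobiose minus L-rhamnose they were 0 higher and 1 lower when 1 L-rhamnose library, whichever it was, was left out, 6 and 3 without cellobiose replicate 1, 3 and 2 without cellobiose replicate 2, and 11 lower when 1 xylose library was left out, whichever it was. For xylose minus cellobiose 1 was called higher when 1 L-rhamnose library or cellobiose replicate 1 was left out, 8 were higher and 2 lower without xylose replicate 2, and 1 was lower without xylose replicate 1. For xylose minus L-rhamnose 7 were called higher when 1 L-rhamnose library was left out, with 2 lower without replicate 1 and 3 lower without replicate 2. The full order of the members in all libraries, whatever the size of the steps, was met by 9 tested neighbours (12.7%) and by 582 of all tested genes (4.595%).

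The neighbours called higher on xylose than on cellobiose lay on scaffolds 20, 44 and 153. The one on scaffold 44 starts 113 bases upstream of gene_11302, on the other strand, and has 1 exon and shares reads with another gene. It had 5.75 and 3.70 FPKM on L-rhamnose, 5.44 and 5.83 on cellobiose and 14.1 and 14.2 on xylose, far below gene_11302 itself. Its log2 difference was 1.44 ± 0.28 for xylose minus cellobiose (SE, edgeR adjusted p = 0.0402) and 0.26 ± 0.31 for cellobiose minus L-rhamnose (SE, adjusted p = 0.565). On scaffold 20 an 8-exon neighbour (bases 149278 to 151082) had 295 and 209 FPKM on L-rhamnose, 121 and 197 on cellobiose and 874 and 608 on xylose. On scaffold 153 a 10-exon neighbour that shares reads with another gene (bases 6789 to 9292) had 368 and 378, 177 and 125, and 477 and 488 FPKM on the same sugars. It was called lower on cellobiose than on L-rhamnose (log2 difference -1.28 ± 0.23 SE, edgeR adjusted p = 0.0132). None of these neighbours was called higher on cellobiose than on L-rhamnose. Because neighbours that met the whole rule were left out, this absence is partly set by the choice of the neighbours.

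The build of the pair on scaffold 40 led to a search, made after the values had been seen, for other deposited models that share a run of 3 equal coding part lengths with a member. Equal part lengths are a feature of the models and say nothing direct about sequence, which was not used here. Of the 36 members with at least 3 coding parts, 10 (27.8%) had such a partner with 2 shared runs or a place on the same scaffold, against 10.01% of the other expressed models. The limit of 2 runs or the same scaffold was set after the partners had been listed, and without it the shares were 27.8% and 12.7%. These 10 members had 12 partners. All 12 were tested and 0 were members. The members of the scaffold 40 pair share only the parts of 177 and 97 bases. By a run of 3 they therefore did not count as partners of each other.

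**Figure D5:**
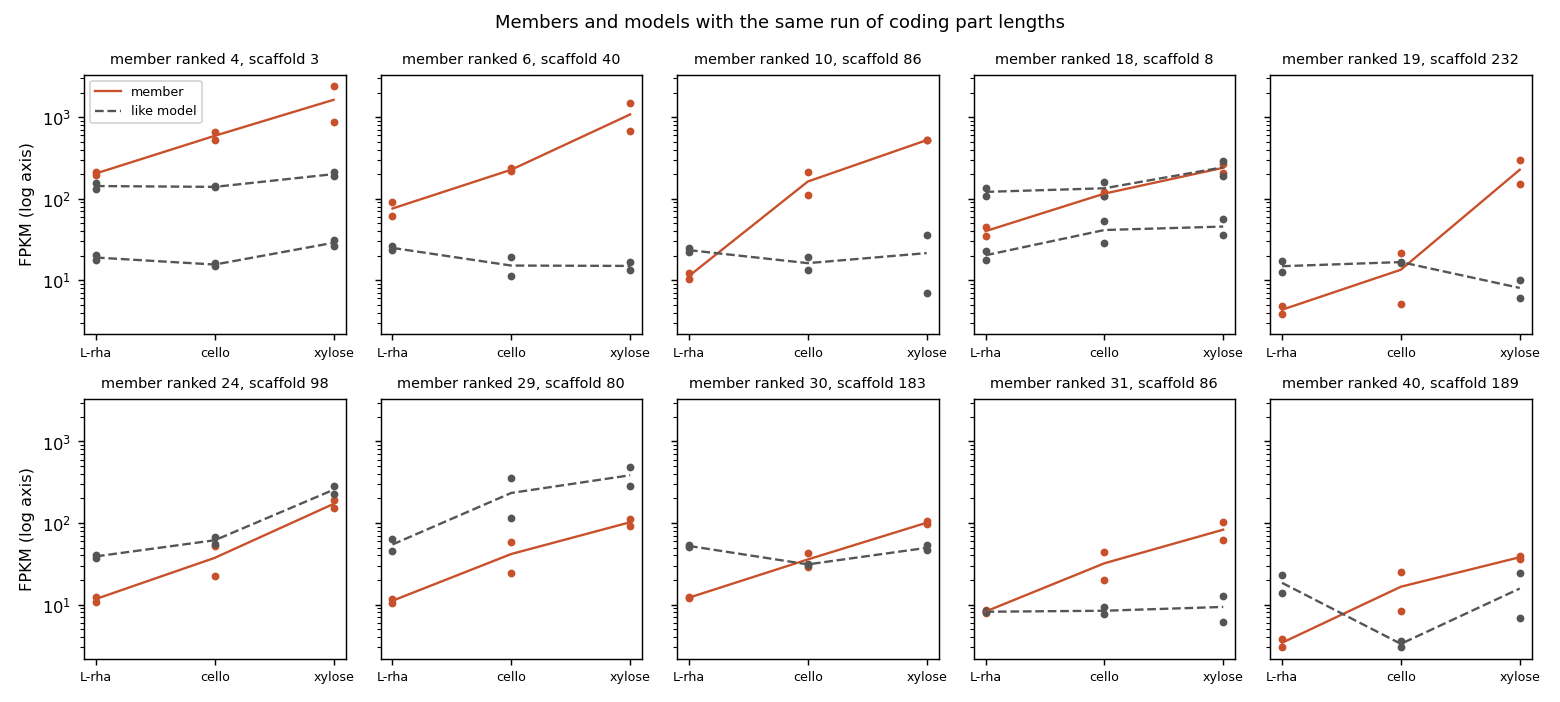
FPKM (log axis) on L-rhamnose (L-rha), cellobiose (cello) and xylose for the 10 members that share a run of 3 equal coding part lengths with other models, in solid red, and for their 12 partners, in dashed grey; points are libraries and lines join the means of 2 libraries. The member rises at both steps in every panel by the rule, and 1 of the 12 partners, in the scaffold 98 panel, keeps the same order in all libraries.

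Without the limit there were 17 partners, all tested. By edgeR, 3 of the 17 were called higher on xylose than on cellobiose and 1 lower, where 1.66% and 2.55% of all tested genes were. For cellobiose minus L-rhamnose 1 was called higher and 2 lower (11% and 11% of all tested genes), and for xylose minus L-rhamnose 7 higher and 1 lower (15.6% and 15.9%). The 12 partners within the limit held 2, 1 and 6 of the higher calls and 2 of the lower calls, both of these for cellobiose minus L-rhamnose. The partner on scaffold 98 (bases 45732 to 46921) came closest to a member. It had 40.5 and 37.5 FPKM on L-rhamnose, 67.7 and 55.3 on cellobiose and 287 and 225 on xylose, beside 10.9 and 12.6, 22.2 and 52.7, and 154 and 190 FPKM in the member 1 model away (bases 48549 to 50016). Its log2 difference was 2.18 ± 0.21 for xylose minus cellobiose (SE, edgeR adjusted p = 0.00345) and 0.68 ± 0.21 for cellobiose minus L-rhamnose (SE, adjusted p = 0.0571). The partner was thus the more abundant on every sugar and missed the rule at the lower step.

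Other partners departed more. Next to the scaffold 232 member with the wide upper step lay a partner on the opposite strand (bases 9556 to 11102) with 12.5 and 17.2 FPKM on L-rhamnose, 16.9 and 16.5 on cellobiose and 6.04 and 10.1 on xylose. It was lowest on the sugar on which its neighbour was highest, although its log2 difference for xylose minus cellobiose did not pass the threshold (-0.93 ± 0.31 SE, edgeR adjusted p = 0.154). The 11-exon member on scaffold 183 shared 5 runs with a model on scaffold 46 (bases 56346 to 57977), which had 54.0 and 50.7 FPKM on L-rhamnose, 30.4 and 31.8 on cellobiose and 53.2 and 46.1 on xylose. That model was called lower on cellobiose than on L-rhamnose (log2 difference -0.73 ± 0.18 SE, edgeR adjusted p = 0.0291), the opposite of its partner's direction. A partner on scaffold 80 (bases 132333 to 134351) had 63.6 and 45.6 FPKM on L-rhamnose, 115 and 352 on cellobiose and 488 and 282 on xylose, so cellobiose replicate 2 overlapped the xylose libraries.

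The adjacent member pair on scaffold 86 had an adjacent pair of partners on scaffold 135. The 12-exon member shared 2 runs with a model at bases 50569 to 52028, and the 22-exon member 6 runs with one at bases 53248 to 61956, in the same order and on the same strands. The first partner had 24.7 and 22.1 FPKM on L-rhamnose, 13.3 and 19.1 on cellobiose and 36.0 and 7.06 on xylose. The second had 8.23 and 8.11, 7.58 and 9.23, and 12.6 and 6.14 FPKM on the same sugars. Neither was called in any comparison, with log2 differences for xylose minus L-rhamnose of 0.04 ± 0.63 and 0.35 ± 0.33 (SE). The pair on scaffold 86 was thus graded over the sugars, by the rule. The pair on scaffold 135, linked to it only by runs of equal part lengths, showed no detected difference, and its xylose libraries were far apart.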

How the data were processed

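RNA from 6 libraries, 2 per sugar, was compared. The authors deposited per library a table of RSEM expected counts and FPKM values, and gene models with positions. Per the submitters' processing notes, the tools were HISAT, Bowtie2 and RSEM, with versions and settings not given in the sources used here. The deposited length equalled the summed coding bases of each model, so untranslated regions did not enter these values. Genes not listed in a table were taken as 0. Members and lists were chosen with earlier results of these data known.

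Expected counts were rounded for edgeR's quasi-likelihood test (version 4.0.16, R 4.3.3; TMM, filterByExpr, glmQLFit, glmQLFTest, all 6 libraries in one fit, no covariate), with Benjamini-Hochberg adjustment over 12667 of 14443 genes with a count and a threshold of 0.05. The fit had 3 residual degrees of freedom. Alternatives used DESeq2 1.42.0, limma 3.58.1 on log2(FPKM + 1), other scalings, filters and thresholds, and fewer libraries. Tables were handled in Python 3.11.15.

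Identifiers are printed for the 2 members with the highest xylose FPKM. The other members named are the next 4 by xylose FPKM, the 4 greatest in xylose over L-rhamnose, the 2 greatest at each step, neighbouring members, and 2 models on either side of each threshold. Members on scaffolds 13, 14, 55, 98, 119, 153, 183 and 189, and the second on scaffold 40, were chosen after their values were seen.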

Additional observations from a re-analysis of the deposited data

How the results depend on the processing

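With DESeq2, 38 members were called for xylose minus cellobiose, and 2 when only those sugars were fitted, a fit with fewer libraries. The rule found 24 models with FPKM + 10, 104 at 1.5 times and 21 at 3 times. With DESeq2, 10 neighbouring models were called higher and 2 lower on xylose than on cellobiose. With a replicate block the neighbours called for cellobiose minus L-rhamnose were 5 higher and 3 lower, and 3 were lower for xylose minus L-rhamnose; the members called under the block were 19, 26 and 41 for xylose minus cellobiose, cellobiose minus L-rhamnose and xylose minus L-rhamnose. Samples share only a number: deviations of same-numbered libraries correlated at -0.12, -0.20 and -0.09 in these comparisons. The cause of these changes was not tested.

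Leaving out each library in turn gave 2 to 36, 2 to 38 and 30 to 41 members called in the 3 comparisons, 38 to 85 models by the rule, and median ratios of 2.87 to 5.53 for xylose over cellobiose and 2.24 to 4.42 for cellobiose over L-rhamnose. Neighbours called higher and lower were 1 to 8 and 0 to 2 for xylose minus cellobiose, 0 to 14 and 1 to 11 for cellobiose minus L-rhamnose, and 7 to 20 and 2 to 6 for xylose minus L-rhamnose. Among the fitted differences of single named members, 420 kept direction and call, 76 lost the call, 10 gained it and 0 reversed. With 2 libraries per sugar, counts at a fixed threshold are imprecise. For DESeq2 and the other alternative fits, the share called among all tested genes is not given here. Their counts therefore do not set members or neighbours apart from other genes.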
